A study of Mus musculus with 105 samples.

Results

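The comparison set the wild-type SUZ12 rescue line of a panel of mouse embryonic stem (ES) cells against its Suz12 knockout parent, using RNA sequencing. Its members were the 3 rescue and the 3 knockout libraries of the panel's count table, chosen by the genotype in their labels, 6 of the 105 samples of the series. All genes were used, and 16230 of the 53656 genes listed passed the filter on low counts. The rescue cells were E14TG2a ES cells, a male mouse line, with Suz12 knocked out and wild-type SUZ12 put back. The knockout cells carried no SUZ12 construct. Further panel lines were used only to place the comparison. These were knockout cells given S12N, a SUZ12 lacking its VEFS domain, and unmodified wild-type E14TG2a cells, with 3 libraries each. Knockout cells given S12N joined to SD2 or SUV2, or to the forms SD2* and SUV2* that the titles call dead, entered the fit to estimate the spread, also with 3 libraries each. All panel cells were grown in serum with LIF and had no treatment, and their poly(A) RNA was sequenced. A second dataset of the same series, called the HP1 dataset, with its own library kit, sequencer and full-length SUZ12 line, had 3 full-length, 3 knockout and 3 wild-type libraries of E14Tg2a cells, and its labels give no medium. Its fit also held 3 libraries of knockout cells given S12N and 3 given S12N fused to the HP1a chromodomain. Each construct stood for a line of its own, so a difference between constructs and a difference between lines cannot be told apart. The labels call the samples biological triplicates and do not say that they came from separate clones.

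Polycomb repressive complex 2 (PRC2) methylates lysine 27 of histone H3, a mark found at silent developmental genes. EZH2 is its catalytic subunit, EED binds the mark, and SUZ12 holds the complex together. The C-terminal VEFS domain of SUZ12 contacts EZH2 and EED and is needed for catalysis, while the N-terminal portion binds accessory subunits. ES cells without PRC2 keep dividing and self-renewing, and many genes of later lineages are transcribed in them. The question of the series, in its own terms, was how PRC2 target genes change when the histone modification profile is changed.

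PRC2 in mammals gathers at promoters dense in CpG dinucleotides, so the windows before 3 genes that the results turn on are shown with each CG in capitals. They come from RefSeq on GRCm38.p6, cover the 250 bases before the annotated start, and are printed on the strand of the gene. Hoxd13, a patterning factor of the hind end of the body and the limb, has its window at chr2:74667975-74668224 on the plus strand. Gna14, which encodes a G-protein alpha subunit, has its window at chr19:16435417-16435666 on the plus strand. Gbp2, an interferon-induced guanylate-binding GTPase, has its window at chr3:142620413-142620662 on the plus strand.
Hoxd13: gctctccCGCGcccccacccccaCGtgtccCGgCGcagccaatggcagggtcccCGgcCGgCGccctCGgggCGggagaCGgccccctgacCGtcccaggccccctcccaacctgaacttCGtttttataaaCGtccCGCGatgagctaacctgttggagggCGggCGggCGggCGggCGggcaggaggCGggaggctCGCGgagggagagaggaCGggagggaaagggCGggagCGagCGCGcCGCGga
Gna14: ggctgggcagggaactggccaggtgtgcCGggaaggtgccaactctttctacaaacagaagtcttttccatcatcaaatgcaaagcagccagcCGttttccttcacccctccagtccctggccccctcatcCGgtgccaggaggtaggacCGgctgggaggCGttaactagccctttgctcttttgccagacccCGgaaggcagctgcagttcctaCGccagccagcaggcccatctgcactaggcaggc
Gbp2: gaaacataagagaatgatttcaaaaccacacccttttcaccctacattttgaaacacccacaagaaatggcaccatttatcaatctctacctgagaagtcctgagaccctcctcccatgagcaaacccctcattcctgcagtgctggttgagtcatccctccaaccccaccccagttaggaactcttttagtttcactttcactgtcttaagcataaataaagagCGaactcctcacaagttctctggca
The dinucleotide CG reads the same on both strands, so 1 count covers both. The Hoxd13 window holds 31 CG, and 5.2% of the 32817 windows in the table hold as many or more. The Gna14 window holds 7 and the Gbp2 window 1, numbers that 46.3% and 92.1% of the windows reach or exceed. The median window holds 6 CG, with quartiles of 2 and 16. The 3 windows are examples and do not stand for a rule. The first listed windows of the strongly lower genes Hoxd11, Nr2f2 and Hoxa10 hold 2, 1 and 7 CG. That of the higher gene Pax6 holds 15. Only the first listed window of each gene was used, so these numbers do not describe any further starts of a gene. Only 65.2% of the genes tested could be matched to a window, under the 80% needed, so promoters of whole gene classes were not compared.

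Suz12 itself was measured first. It had 303, 272 and 232 counts-per-million units (CPM) in rescue libraries and 45.6, 55.7 and 66.7 CPM in knockout libraries. Every rescue library was above every knockout library, and the log2 fold change, rescue over knockout, was 2.26 ± 0.15 (SE, n = 3 each), with an adjusted p of 2e-12 from edgeR's quasi-likelihood test with Benjamini-Hochberg adjustment. The rescue level lay close to that of wild-type cells, which had 271, 291 and 319 CPM (log2 fold, rescue over wild type, -0.13 ± 0.13, adjusted p = 0.619 by edgeR). Reads on Suz12 at chr11:79993106-80034123 (mm10) cannot be divided here between the construct and the disrupted locus.

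Depth and the way the columns were named split the panel in the same way as the comparison. Rescue libraries held 19449311 to 24554223 counts in genes, and S12N libraries 19042930 to 21383446. Knockout libraries held 10077378 to 10477416 and wild-type libraries 8799103 to 10694811, and the column names of these 6 carry an embryoid-body differentiation series at day 0, which those of the 18 deeper libraries lack. Rescue and knockout therefore stand on different sides, whereas rescue and S12N stand together among the deeper libraries, and knockout and wild type together among the shallower ones. Of the 16230 genes, 18 were higher in each of the 18 deeper libraries than in each of the 6 shallower ones, and 0 were lower in each. These 18 were clone-named genes and ribosomal protein pseudogenes, and 17 of them were called higher in the rescue. One of them, RP23-217B8.5, picked out after its values were seen, had 25.6 to 31.7 CPM in rescue libraries and 0 counts in all knockout and wild-type libraries. Thinned to the depth of the shallowest library, the comparison called 6387 genes, against 7897 at full depth. Whatever else differed between the sets of libraries cannot be told apart from the rescue.

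Expression differed across much of the transcriptome, and the large changes were mostly decreases. At an adjusted p under 0.05, 7897 genes changed in the rescue against the knockout, which is 48.7% of those tested, with 3964 higher (24.4%) and 3933 lower (24.2%). Among changes of 2-fold or more, 2059 genes (12.7%) were lower and 600 (3.7%) were higher. At 4-fold or more the numbers were 934 lower and 123 higher, and at 16-fold or more 177 lower and 15 higher. The median over all genes tested was 0.02 on the log2 scale. Counts in the gene lists below are to be read beside the shares of 24.4% higher and 24.2% lower. Rescue and knockout libraries did not overlap at 8657 genes, 53.3% of those tested. Most genes named below were picked for a small p or for groups without overlap, so their separation follows from that choice. When the test asked for a change beyond 2-fold, in place of any change, it called 1286 genes, 1114 of them lower.

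The genes that fell were weakly transcribed in the rescue. Genes at least 2-fold lower had a median of 0.508 CPM in the rescue, 1.78 CPM in S12N, 1.99 CPM in the knockout and 0.504 CPM in wild-type cells. In the rescue 64.8% of them averaged under 1 CPM, against 29.4% in the knockout. Genes at least 2-fold higher had a median of 2.86 CPM in the rescue, 1.31 CPM in S12N, 0.904 CPM in the knockout and 1.87 CPM in wild-type cells. The classes were chosen from the rescue and knockout libraries, so the order of those medians was set by the choice. In the lower class the S12N median lay near the knockout and the wild-type median near the rescue. In the higher class the S12N median lay between the knockout and wild type.

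**Figure D1:**
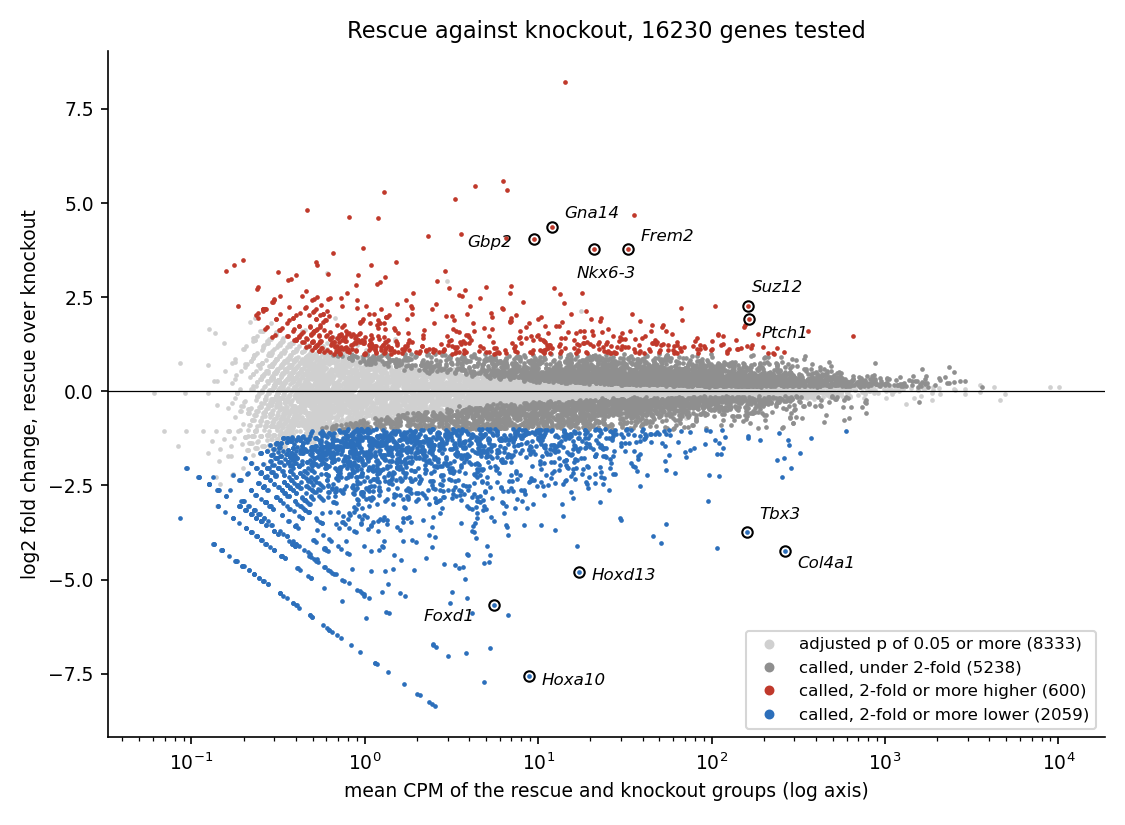
Each point is 1 of 16230 genes, with the mean CPM of rescue and knockout libraries on a logarithmic horizontal axis and the log2 fold change, rescue over knockout, on the vertical axis. Red marks the 600 genes called at least 2-fold higher and blue the 2059 called at least 2-fold lower, which spread further from 0 than the red ones and lie at lower CPM.

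Hox genes, which set position along the body axis, fell throughout. Of 41 members 27 passed the filter, and all 27 of these were called lower, with a median log2 fold of -4.5 and a range of -8.25 to -2.09. For 8 of the 27 a group had 0 counts, so their values are bounds set by a floor of 3 counts over the group, and the median depends on it. A member that passes only because it is transcribed in the knockout has to differ, so the count describes the measured genes and supports nothing beyond them. Summed over the list, Hox transcripts made up 4.1 to 4.9 CPM in the rescue, 139.5 to 145.7 CPM in S12N, 117 to 129.5 CPM in the knockout and 7.8 to 11.4 CPM in wild-type cells. The rescue sat below wild type, and its range did not meet that of any other group.

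Hoxd13, whose CpG-rich window is shown above, was the most strongly tested member. Its level was 1.28, 1.13 and 1.2 CPM in rescue libraries and 35.8, 31.4 and 32 CPM in knockout libraries. The groups were far apart, with little spread in either (log2 fold -4.79 ± 0.15, adjusted p = 2.08e-18 by edgeR). Hoxa10, a patterning gene of the trunk and uterus, had 6 counts over the 3 rescue libraries and 553 over the 3 knockout libraries. Its log2 fold was -7.57, with an exact 95% counting interval of -9.02 to -6.44. Hoxa13, active in the hindmost body and the genital tract, had 0 counts in rescue libraries and 191 in knockout libraries. Taking 3 counts over the group as the floor, it was at least 7.03 lower on the log2 scale. Hoxa11, a limb and kidney patterning gene, had 3 counts in the rescue and 306 in the knockout (-7.71, counting interval -10 to -6.15). Hoxa11os is transcribed from the opposite strand of the same locus, and no source used here says whether counting respected strand, so the share of reads between them is uncertain. Hoxd11, a limb patterning gene in the same cluster as Hoxd13, had 1 count in the rescue and 148 in the knockout (-8.25, counting interval -13.6 to -5.75).

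**Figure D2:**
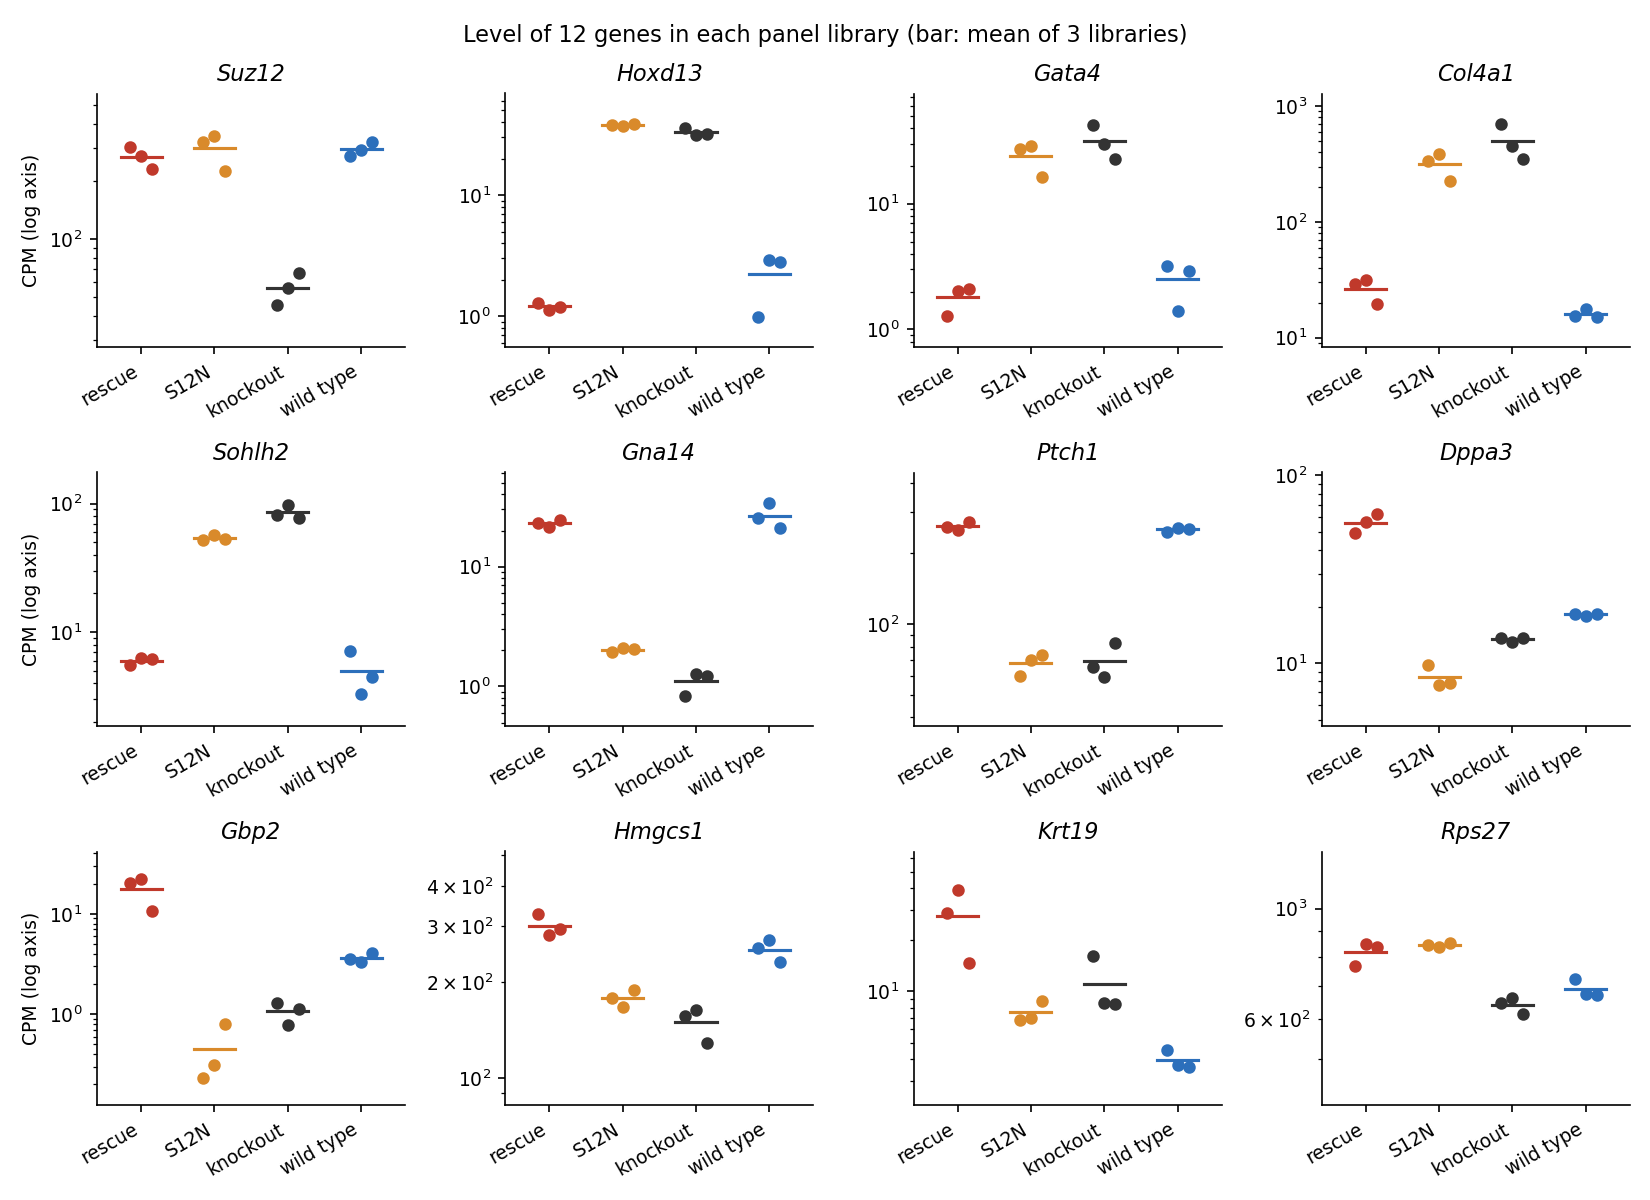
Each panel is 1 gene, each point 1 library and each bar the mean of 3 libraries, in CPM on a logarithmic axis, with groups ordered as rescue, S12N, knockout and wild type. Hoxd13, Gata4, Col4a1 and Sohlh2 are low in the rescue and wild type and high in S12N and the knockout, Gna14 and Ptch1 show the opposite arrangement, Gbp2 and Dppa3 are highest in the rescue, and Rps27 is higher in the rescue and S12N than in the knockout and wild type.

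Other homeodomain factors fell in most cases. Among 46 measured members of the NKX, DLX, LHX and IRX list, 37 were lower and 4 higher, with a median of -2.09. The list has 61 members. As with the Hox list, those measured only because the knockout transcribes them had to differ. With only both groups fitted 32 were measured, 25 of them lower and 2 higher. Meis2, a cofactor of Hox proteins, had 2.62, 2.39 and 2.7 CPM in the rescue and 23, 27.9 and 24.8 CPM in the knockout. The gap between groups was much wider than the spread within either (-3.30 ± 0.10, adjusted p = 2e-18 by edgeR). Barx1, a stomach and jaw patterning gene, fell by 4.61 on the log2 scale (counting interval -5.42 to -3.9). Nkx6-3, a gastric endocrine and gut homeobox gene, went the other way. It had 33.5, 39.5 and 43.7 CPM in the rescue and 3.16, 2.72 and 2.55 CPM in the knockout (3.79 ± 0.17).

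Forkhead, T-box and GATA factors, which specify endoderm, heart and mesoderm, included 21 lower and 1 higher of 26 measured members (median -2.6). The list has 35 members, and the limit given for the Hox list holds here too. With only both groups fitted 19 were measured, 17 of them lower and 1 higher. The higher one was Foxa3, a liver and gut endoderm factor, at 1.20 ± 0.30. Gata4, a cardiac and primitive endoderm regulator, had 1.28, 2.04 and 2.1 CPM in the rescue and 42.1, 29.9 and 22.5 CPM in the knockout. All knockout libraries were above all rescue libraries, although the knockout ones spread more (-4.10 ± 0.25). Tbx3, which acts both in limb and heart and in the ES cell network, had 23.9, 26.8 and 16.5 CPM in the rescue and 265, 328 and 294 CPM in the knockout (-3.73 ± 0.15). Foxd1, a kidney stroma factor, fell to 14 counts in the rescue, against 345 in the knockout (-5.67, counting interval -6.55 to -4.9). Tbx15, a skeletal and skin patterning factor, fell by 2.88 ± 0.19. Nr2f2, a nuclear receptor of veins and mesenchyme that was on none of the lists, had 6 counts in the rescue and 330 in the knockout (-6.83, counting interval -8.28 to -5.69).

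Neural regulators moved in both directions. Of 27 measured neurogenic bHLH and SOX factors 15 were lower and 3 higher (median -0.84), and of 15 PAX-, SIX- and EYA-family factors 6 were lower and 4 higher (median -0.49). Zic1, a factor of the dorsal neural tube, had 8 counts in the rescue and 72 in the knockout (-4.21, counting interval -5.48 to -3.16). Sox11, a neuronal progenitor factor, was higher in the rescue, with 37.2, 31.1 and 29.3 CPM against 13.9, 14 and 18.3 CPM in the knockout (1.08 ± 0.14). Pax6, the eye and forebrain regulator, had 34.6, 25.9 and 32.2 CPM in the rescue and 4.09, 4.46 and 6.53 CPM in the knockout. It stood apart from most of its class, with no overlap between groups (2.62 ± 0.19, adjusted p = 1.95e-11 by edgeR). Eya1, a phosphatase and coactivator in ear and kidney development, had 18.1, 16.2 and 17 CPM in the rescue and 4.83, 5.43 and 7.1 CPM in the knockout (1.56 ± 0.14). Pax7, a muscle progenitor and neural crest factor, fell to 3 counts, against 61 in the knockout (-5.39, counting interval -7.7 to -3.77). The PAX-, SIX- and EYA-family count was unstable, with 2 lower when only the 6 libraries of both groups were fitted.

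Signalling genes known as PRC2 targets were lower more often than higher. Of 54 measured ligands, receptors and inhibitors 30 were lower and 11 higher, with a median of -0.82. Fgf10, a ligand of limb and lung budding, had 1.87, 2.21 and 2.14 CPM in the rescue and 16, 16.7 and 16.8 CPM in the knockout (-2.99 ± 0.12). Cdkn2a, which encodes the cell-cycle inhibitors p16 and p19Arf, had 3.48, 3.6 and 4.71 CPM in the rescue and 31.1, 29.2 and 23.6 CPM in the knockout (-2.82 ± 0.14). For both genes the groups lay far apart.

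Several Hedgehog and Wnt genes, chosen after their values were seen apart from Ptch1 and Gli1, were among the 11 higher. Ptch1, the Hedgehog receptor and a transcriptional target of the pathway, had 260, 250 and 273 CPM in the rescue and 65.7, 59.2 and 82.8 CPM in the knockout (1.91 ± 0.10, adjusted p = 1.73e-14 by edgeR). Gli1, the transcription factor that the pathway induces, had 73.7, 78.6 and 84.8 CPM in the rescue and 20.9, 22.4 and 29.3 CPM in the knockout (1.71 ± 0.10). Neither gene overlapped between groups, and Hhip, a Hedgehog-binding inhibitor that is also a target, was 1.09 higher. Of the Wnt ligands, Wnt7b was higher by 1.84 ± 0.24 and Wnt4 by 1.49 ± 0.31. Wnt7a was weakly transcribed, with 178 counts in the rescue and 8 in the knockout (3.44, counting interval 2.42 to 4.67). Wnt3 had 143 counts in the rescue and 17 in the knockout (2.04, counting interval 1.3 to 2.85). Bmper, a secreted BMP modulator, was at the other end, with 1 count in the rescue and 127 in the knockout (-8.03, counting interval -13.3 to -5.53).

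Primitive endoderm genes fell broadly. Primitive endoderm is the extra-embryonic lineage that lines the yolk sac, and 24 of 28 measured members of its list were lower and 2 higher (median -2.4). Col4a1, a basement membrane collagen, had 29, 31.4 and 19.4 CPM in the rescue and 707, 449 and 350 CPM in the knockout. The lowest knockout library was far above the highest rescue library, although the knockout libraries spread more (-4.24 ± 0.21). Col4a2, its partner chain, changed alike (-4.15 ± 0.23). Sox17, an endoderm factor, had 9 counts in the rescue and 260 in the knockout (-5.89, counting interval -7.04 to -4.95), and Sox7, which acts beside it, fell by 2.44 ± 0.12. The higher pair was Apoe, a lipid carrier, with 1.47 ± 0.14, and Lrp2, an endocytic receptor, with 0.63. In a bulk sample, fewer cells of a type and less of its RNA per cell cannot be told apart.

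Genes of the two-cell embryo and of the germline were mostly called lower. Of 21 measured two-cell genes 18 were lower and 1 higher (median -4.49), and 9 of the 21 had 0 counts in a group. As with the Hox list, members measured only because the knockout transcribes them had to differ. The summed level of the list was 205.4 to 220.3 CPM in the rescue and 198.5 to 219.9 CPM in the knockout, which overlapped. Most of that sum came from Dppa4 and Dppa2, pluripotency-associated factors that averaged 125 and 85.1 CPM in the rescue and 95.3 and 80.6 CPM in the knockout. Dppa4 was the higher member and Dppa2 was not called. Zscan4d, a member of the Zscan4 telomere regulators of two-cell-like cells, had 0 counts in the rescue and 87 in the knockout, which makes it at least 5.90 lower on the log2 scale. Usp17le, a deubiquitinase of a multicopy family, had 1 count in the rescue and 106 in the knockout (-7.77, counting interval -13.1 to -5.26). Both families have near-identical copies, so the division of reads among copies is uncertain. With only the 6 libraries of both groups in the fit, fewer of the list were measured and 11 were lower.

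The germline list had 27 lower and 2 higher of 37 measured members (median -1.69). Sohlh2, a transcription factor of early oocytes and spermatogonia, had 5.51, 6.29 and 6.2 CPM in the rescue and 82.2, 98.2 and 77.7 CPM in the knockout (-3.84 ± 0.12). Mael, which acts in piRNA-mediated transposon silencing, had 7.81, 6.81 and 7.44 CPM in the rescue and 42.4, 44.2 and 33.5 CPM in the knockout (-2.45 ± 0.10). Both stood clear of any overlap. Tex13b, a testis-expressed X-linked gene, had 3 counts in the rescue and 154 in the knockout (-6.72, counting interval -9.02 to -5.15). Sycp3, a component of the meiotic chromosome axis, was higher instead, with 32.4, 31.3 and 28.1 CPM in the rescue and 10.7, 13.5 and 8.61 CPM in the knockout (1.49 ± 0.13). The other higher gene was Syce2, of the central element of the same structure, at 0.34.

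**Figure D3:**
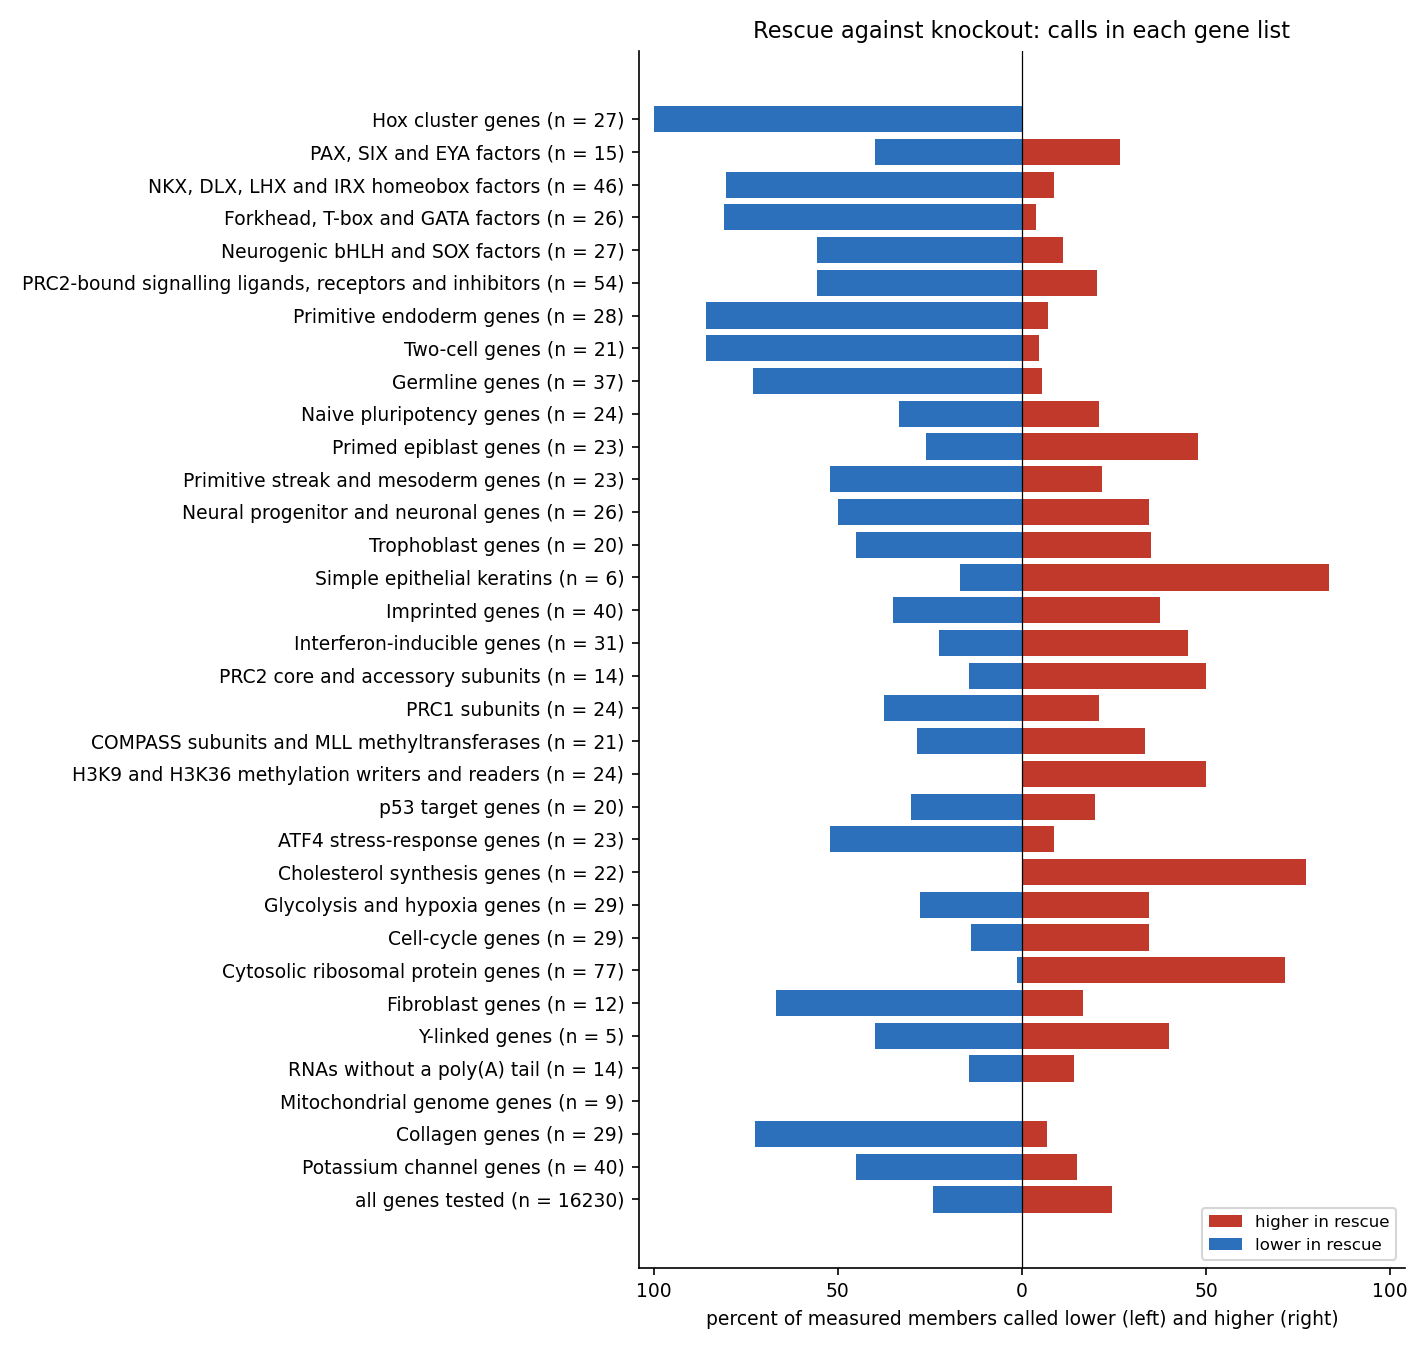
For each of 33 gene lists and for all genes tested, bars give the percent of measured members called lower (blue, to the left) and higher (red, to the right) in the rescue against the knockout at an adjusted p under 0.05. Hox genes are all lower, two-cell, primitive endoderm and homeobox lists are mostly lower, and cholesterol synthesis, ribosomal protein and keratin lists lie mostly on the higher side.

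The ES cell label held in both groups. All 24 naive pluripotency markers were measured, and the lowest group mean among them was 22.4 CPM in the rescue and 13.4 CPM in the knockout. Pou5f1, the core pluripotency factor, was not called (0.08 ± 0.06, adjusted p = 0.238 by edgeR), and neither was its partner Sox2 (0.05 ± 0.07, adjusted p = 0.596 by edgeR). Of the list, 5 were higher and 8 lower (median -0.04), and without knockout replicate 2 the higher ones numbered 8. Of all genes tested 24.4% were higher and 24.2% lower, so these counts are not read as a result about the list. Nanog, which stabilises self-renewal, had 460, 450 and 492 CPM in the rescue and 775, 819 and 712 CPM in the knockout (-0.72 ± 0.06). Klf4 fell by 1.43 ± 0.14, so that both genes were lower in the rescue with no overlap. The largest fall of the list, at -3.73, was that of Tbx3, described above. The lowest rescue mean of 22.4 CPM was also that of Tbx3. Dppa3, a germline and preimplantation gene that protects DNA methylation in the zygote, was the member with the largest rise. Its level was 49.2, 56.3 and 62.3 CPM in the rescue and 13.6, 13 and 13.6 CPM in the knockout (2.06 ± 0.11, adjusted p = 2.76e-14 by edgeR). Nr0b1, an orphan nuclear receptor of the ES cell network, rose by 1.14 ± 0.08.

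Lists of the next lineages were mixed. Primed pluripotency genes had 11 higher and 6 lower of 23 (median 0.21). Krt8 and Krt18, keratins described below, are among these higher genes. Pim2, a survival kinase, had 56.4, 45.4 and 50.5 CPM in the rescue and 17.7, 15.8 and 16.9 CPM in the knockout (1.59 ± 0.12), whereas Otx2, an anterior epiblast factor, fell by 1.06 ± 0.12. Primitive streak and mesoderm genes had 12 lower and 5 higher of 23 (median -0.43). Evx1, a posterior streak factor, had 1.12, 0.651 and 1.33 CPM in the rescue and 7.07, 16.9 and 12.3 CPM in the knockout (-3.55 ± 0.30). Sp5, a direct target of Wnt signalling, ran the other way, with 7.65, 6.51 and 5.39 CPM in the rescue and 1.02, 1.36 and 0.662 CPM in the knockout (2.68 ± 0.30). Axin2, another Wnt target, fell by 1.49 ± 0.15, so the Wnt targets named did not move together. Brachyury (T), the mesoderm factor, was 1.56 higher (counting interval 0.951 to 2.17).

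Neural marker genes had 13 lower and 9 higher of 26 (median -0.6). Stmn2, a microtubule regulator of neurites, had 89.3, 75.8 and 96.1 CPM in the rescue and 421, 463 and 383 CPM in the knockout (-2.28 ± 0.12). Ina, the neurofilament protein alpha-internexin, had 184, 165 and 173 CPM in the rescue and 31.8, 37.9 and 39.5 CPM in the knockout (2.26 ± 0.12). They moved in opposite directions, each without overlap. Trophoblast genes had 9 lower and 7 higher of 20 (median -0.07). Krt7, Krt8, Krt18 and Krt19, keratins described below, are on this list and among its higher genes. Esx1, a placental homeobox gene, fell by 2.75 ± 0.22, and Rhox9, a homeobox gene of placenta and gonad, rose by 2.17 ± 0.18. Of 12 measured fibroblast markers 8 were lower and 2 higher (median -1.23), and their summed level was 696.9 to 885.2 CPM in the rescue and 811.5 to 879.8 CPM in the knockout. Fn1 and Vim, which ES cells also transcribe, held most of that sum, while the defining gene Col1a2 averaged 0.107 CPM in the rescue and 1.32 CPM in the knockout. The part of other cell types in the other results was not tested.

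Collagen and potassium channel genes were lower more often than higher. The limit given for the Hox list holds for both lists. Collagen genes had 21 lower and 2 higher of 29 measured (median -1.54), among them Col11a1, a cartilage fibril collagen, at -2.35 ± 0.13. With only both groups fitted 18 of the 35 collagen genes were measured, 15 of them lower and 2 higher. Potassium channel genes had 18 lower, 6 higher and 16 not called of 40 (median -0.61). Kcns3 and Kcng1, silent subunits that modify the currents of other channels, fell by 1.42 ± 0.11 and 2.18 ± 0.19. The channel counts changed with the fit, to 10 lower of 27 in thinned libraries and to 3 higher without rescue replicate 2 or without knockout replicate 2.

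Single genes outside the lists also rose strongly. Gna14 had 23.1, 21.3 and 24.6 CPM in the rescue and 0.837, 1.26 and 1.23 CPM in the knockout (4.38 ± 0.22). Napsa, an aspartic protease of lung and kidney, had 20.5, 22.6 and 21.2 CPM in the rescue and 3.16, 2.62 and 3.78 CPM in the knockout (2.75 ± 0.15). Slc23a1, a vitamin C transporter, had 11.7, 12.3 and 12.4 CPM in the rescue and 1.3, 1.16 and 2.74 CPM in the knockout (2.80 ± 0.20). In these genes each rescue library was several times above each knockout library. Frem2, an extracellular matrix protein of epithelial adhesion, rose by 3.78 ± 0.24, Nlrp9b, an oocyte NLR gene, by 2.78 ± 0.20, Calml4, a brush border calmodulin-like protein, by 2.61 ± 0.19, and Fgfbp1, an FGF carrier, by 2.59 ± 0.21.

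Simple-epithelium keratins rose in a small group. Of 6 measured keratins 5 were higher and 1 was lower (median 1.16), and the summed level was 206.9 to 281.3 CPM in the rescue and 73.9 to 117.7 CPM in the knockout. Krt42, a type I keratin, had 98.9, 108 and 113 CPM in the rescue and 28.3, 30.5 and 26.5 CPM in the knockout (1.91 ± 0.07). Krt18, of simple epithelia, had 48.4, 63.3 and 35.6 CPM in the rescue and 29.9, 20.8 and 16.5 CPM in the knockout (1.13 ± 0.17). Krt19, of ducts and trophoblast, had 28.6, 38.8 and 14.7 CPM in the rescue and 16, 8.54 and 8.42 CPM in the knockout (1.31 ± 0.24). Krt42 and Krt18 were separate in all libraries, while the lowest rescue library for Krt19 fell under the highest knockout library. The lower one, Krt23, had 0 counts in the rescue and 12 in the knockout.

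Interferon-induced and antigen-presentation genes had 14 higher and 7 lower of 31 (median 0.26). Gbp2, whose window is shown above, had 20.5, 22.2 and 10.8 CPM in the rescue and 1.3, 0.776 and 1.14 CPM in the knockout (4.05 ± 0.32, adjusted p = 9.1e-11 by edgeR). Every rescue library was far above the highest knockout library, and the third rescue library was the lowest of its group. Its neighbour and close paralogue Gbp2b rose by 4.08 (counting interval 3.46 to 4.72), and reads could be shared between them. Ifitm3, a membrane protein that restricts virus entry and marks early germ cells, had 140, 136 and 154 CPM in the rescue and 57.1, 57.4 and 54.8 CPM in the knockout (1.34 ± 0.09). Oas1a, a sensor of double-stranded RNA, fell instead, with 1.6, 1.65 and 2.1 CPM in the rescue and 10.8, 11.1 and 9.37 CPM in the knockout (-2.54 ± 0.17). The list thus held genes well separated in each direction.

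Imprinted genes were evenly divided, with 15 higher and 14 lower of 40 (median 0.03). Over all genes tested the shares were 24.4% higher and 24.2% lower. Gab1, a signalling adaptor with imprinted expression in the placenta, had 233, 218 and 255 CPM in the rescue and 70.8, 74.3 and 71.6 CPM in the knockout (1.70 ± 0.07). Grb10, a growth-restraining adaptor, had 123, 123 and 87.4 CPM in the rescue and 450, 478 and 451 CPM in the knockout (-2.05 ± 0.10). Dio3, which inactivates thyroid hormone, had 1.28, 2.04 and 1.2 CPM in the rescue and 13.6, 13 and 12.8 CPM in the knockout (-3.11 ± 0.19). None of the named imprinted genes overlapped between groups, which their choice by smallest p favours. The parental allele of the reads is not known.

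Genes of the polycomb complexes themselves were called in both directions. Of 14 PRC2 genes 7 were higher and 2 lower (median 0.15), Suz12 being one of the higher. Ezh2 was not called (0.11 ± 0.05, adjusted p = 0.0749 by edgeR), and Eed rose by 0.18 ± 0.06. Epop, an accessory subunit that restrains PRC2 activity, had 420, 334 and 420 CPM in the rescue and 803, 841 and 771 CPM in the knockout (-1.04 ± 0.11). Lcor, whose locus also yields the PALI1 subunit, fell by 0.51. PRC1 genes had 9 lower and 5 higher of 24 (median 0.00), with 2 higher when knockout replicate 1 was left out. The PRC1 counts stand beside 24.4% higher and 24.2% lower of all genes tested and are not read as a result. Bmi1, a PCGF subunit of canonical PRC1, had 7.33, 6.94 and 7.32 CPM in the rescue and 42.8, 44.5 and 44.9 CPM in the knockout (-2.62 ± 0.11). Cbx2, a chromodomain subunit that binds the H3K27 methyl mark, had 27.1, 26.2 and 29.3 CPM in the rescue and 69.2, 57.2 and 55 CPM in the knockout (-1.13 ± 0.09), and its relative Cbx8 fell by 2.63. The Bmi1 and Cbx2 groups did not overlap.

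Genes of H3K9 and H3K36 methylation had 12 higher and 0 lower of 24 (median 0.22). Suv39h1, an H3K9 methyltransferase of constitutive heterochromatin, had 28.3, 23.1 and 25.6 CPM in the rescue and 13.1, 15.1 and 11.8 CPM in the knockout (0.94 ± 0.10). Ehmt2 and Ehmt1, the G9a and GLP enzymes that make H3K9me2, rose by 0.55 ± 0.08 and 0.45 ± 0.05. COMPASS and MLL genes, which place H3K4 methylation, had 7 higher and 6 lower of 21 (median 0.12), and 5 higher and 6 lower with DESeq2. All genes tested had 24.4% higher and 24.2% lower, so the COMPASS counts are not read as a result about the list.

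Metabolic and stress lists differed in direction. Cholesterol synthesis genes had 17 higher and 0 lower of 22 (median 0.49), and their summed level was 2116.5 to 2412.6 CPM in the rescue and 1354.1 to 1664 CPM in the knockout. Hmgcs1, the cytosolic HMG-CoA synthase, had 327, 281 and 294 CPM in the rescue and 156, 164 and 129 CPM in the knockout (1.01 ± 0.09). Its groups were well separated, and the list had 16 or 17 higher members in every alternative except the test against 2-fold. Amino-acid response genes controlled by ATF4 had 12 lower and 2 higher of 23 (median -0.52). Asns, asparagine synthetase, had 105, 126 and 82.6 CPM in the rescue and 361, 387 and 363 CPM in the knockout (-1.82 ± 0.14). The higher pair was Atf4 itself at 0.28 and Cth at 0.26, and 0 of the list were higher without rescue replicate 2, without knockout replicate 2, with RLE size factors or with DESeq2.

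Glycolysis genes had 10 higher and 8 lower of 29 (median 0.04), with Eno3, the muscle enolase, at 1.47 ± 0.10 and Pfkp, a phosphofructokinase, at -1.10 ± 0.06. Cell-cycle genes had 10 higher and 4 lower of 29 (median 0.07). Ccnd3, a D-type cyclin, had 207, 207 and 225 CPM in the rescue and 406, 405 and 327 CPM in the knockout (-0.83 ± 0.11), and Ccne1, a cyclin of S-phase entry, rose by 0.83 ± 0.15. p53 target genes had 6 lower and 4 higher of 20 (median -0.05). Pmaip1, which encodes the pro-apoptotic NOXA, had 16.5, 16.9 and 12.1 CPM in the rescue and 51.6, 87.9 and 70.7 CPM in the knockout (-2.21 ± 0.13). Cdkn1a, the p21 inhibitor, fell by 0.85 ± 0.14. Beside 24.4% higher and 24.2% lower of all genes tested, the counts of these lists are not read as results about them.

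Cytosolic ribosomal protein genes were higher by a small margin. Of 77 measured 55 were higher and 1 lower (median 0.17), and the number higher was 33 without knockout replicate 3 and 31 with only both groups fitted. Rps27, a small-subunit protein, had 768, 849 and 839 CPM in the rescue and 646, 663 and 615 CPM in the knockout (0.35 ± 0.06). Their summed level was 73229.6 to 77430 CPM in the rescue, 76687.8 to 80498.3 CPM in S12N, 64344.1 to 68953.8 CPM in the knockout and 66514.5 to 73500.5 CPM in wild-type cells. Rescue and S12N, the deeper groups, were thus both above the knockout, while the rescue and wild-type ranges overlapped. The part of depth in this was not tested. Against S12N, 1 of the 77 was higher and 10 lower in the rescue (median -0.06), and the lower ones numbered 6 without rescue replicate 1 or S12N replicate 1, 17 with RLE size factors and 23 with DESeq2. In that comparison 23.9% of all genes tested were higher and 23.8% lower, so the counts are not read as a decrease of the list. RNAs without a poly(A) tail summed to 457.3 to 892 CPM in the rescue and 189.4 to 332.3 CPM in the knockout, and 2 of the 14 measured were called higher and 2 lower. With only both groups fitted 5 of 8 were higher and 2 lower, and without the filter 5 of 24 were higher and 2 lower. Transcripts of the mitochondrial genome summed to 9188.8 to 10758.3 CPM in the rescue and 10562.1 to 12901.3 CPM in the knockout, and 0 of 9 were called in either direction. With only both groups fitted 5 of these 9 were lower, and without the filter 2 were higher and 5 lower of 11. Their part in the results was not tested.

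The comparison of the rescue with S12N stayed inside the deeper libraries. The columns read as S12N are named for VEFS, the domain that S12N lacks, and were matched through labels that call the construct dVEFS. It called 7742 genes (47.7%), 3886 higher (23.9%) and 3856 lower (23.8%), and 1958 (12.1%) were at least 2-fold lower against 515 (3.17%) at least 2-fold higher. All 27 Hox genes measured were lower (median -4.68), as were 36 of 46 NKX, DLX, LHX and IRX factors (median -2.01) and 22 of 28 primitive endoderm genes (median -2.37). Hoxd13 had 38.1, 36.9 and 38.3 CPM in S12N, and the log2 fold, rescue over S12N, was -4.98 ± 0.15. Sohlh2 had 52, 57 and 53 CPM and Col4a1 336, 384 and 228 CPM in S12N, all above every rescue library. Suz12, counted over the gene, did not separate these groups (-0.15 ± 0.13, adjusted p = 0.382 by edgeR). Rescue was compared with S12N and with the knockout through the same 3 libraries, so the comparisons are not independent.

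Other lists went in both directions against S12N. ATF4 genes had 0 higher and 16 lower of 23 (median -0.85), and germline genes 4 higher and 25 lower of 37 (median -1.57). Cholesterol genes had 15 higher and 0 lower of 22 (median 0.36), keratins 5 higher and 1 lower (median 1.2), H3K9 and H3K36 methylation genes 16 higher and 0 lower (median 0.26), and interferon genes 15 higher and 4 lower (median 0.34). Gna14 had 1.96, 2.07 and 2.05 CPM in S12N, Ptch1 60, 70.5 and 73.5 CPM, and Dppa3 9.73, 7.67 and 7.8 CPM, all below every rescue library. The S12N libraries differed from the rescue in other ways. Y-linked genes summed to 176.3 to 193.7 CPM in the rescue and 70.1 to 81.9 CPM in S12N, and RNAs without a poly(A) tail to 457.3 to 892 CPM in the rescue and 593.2 to 9927.3 CPM in S12N. Their part in the rescue against S12N result was not tested.

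Knockout against wild type used only the shallower libraries and shares no library with rescue against S12N. It called 7638 genes (47.1%), with 3867 higher (23.8%) and 3771 lower (23.2%) in the knockout, and 2247 (13.8%) at least 2-fold higher against 361 (2.22%) at least 2-fold lower. Between these comparisons, 2824 genes were both lower in the rescue against S12N and higher in the knockout against wild type, which is 73.2% of the 3856 and 73% of the 3867. Another 2709 were higher in the rescue and lower in the knockout, 69.7% of the 3886 and 71.8% of the 3771. Only 30 genes were lower in both and 98 were higher in both. Hox genes had 26 higher and 0 lower of 27 in the knockout (median 3.15), primitive endoderm genes 25 higher and 1 lower of 28 (median 2.5), and germline genes 30 higher and 1 lower of 37 (median 1.77). Cholesterol genes had 12 lower and 0 higher of 22 (median -0.3), and ribosomal protein genes 9 lower and 0 higher of 77 (median -0.03).

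**Figure D4:**
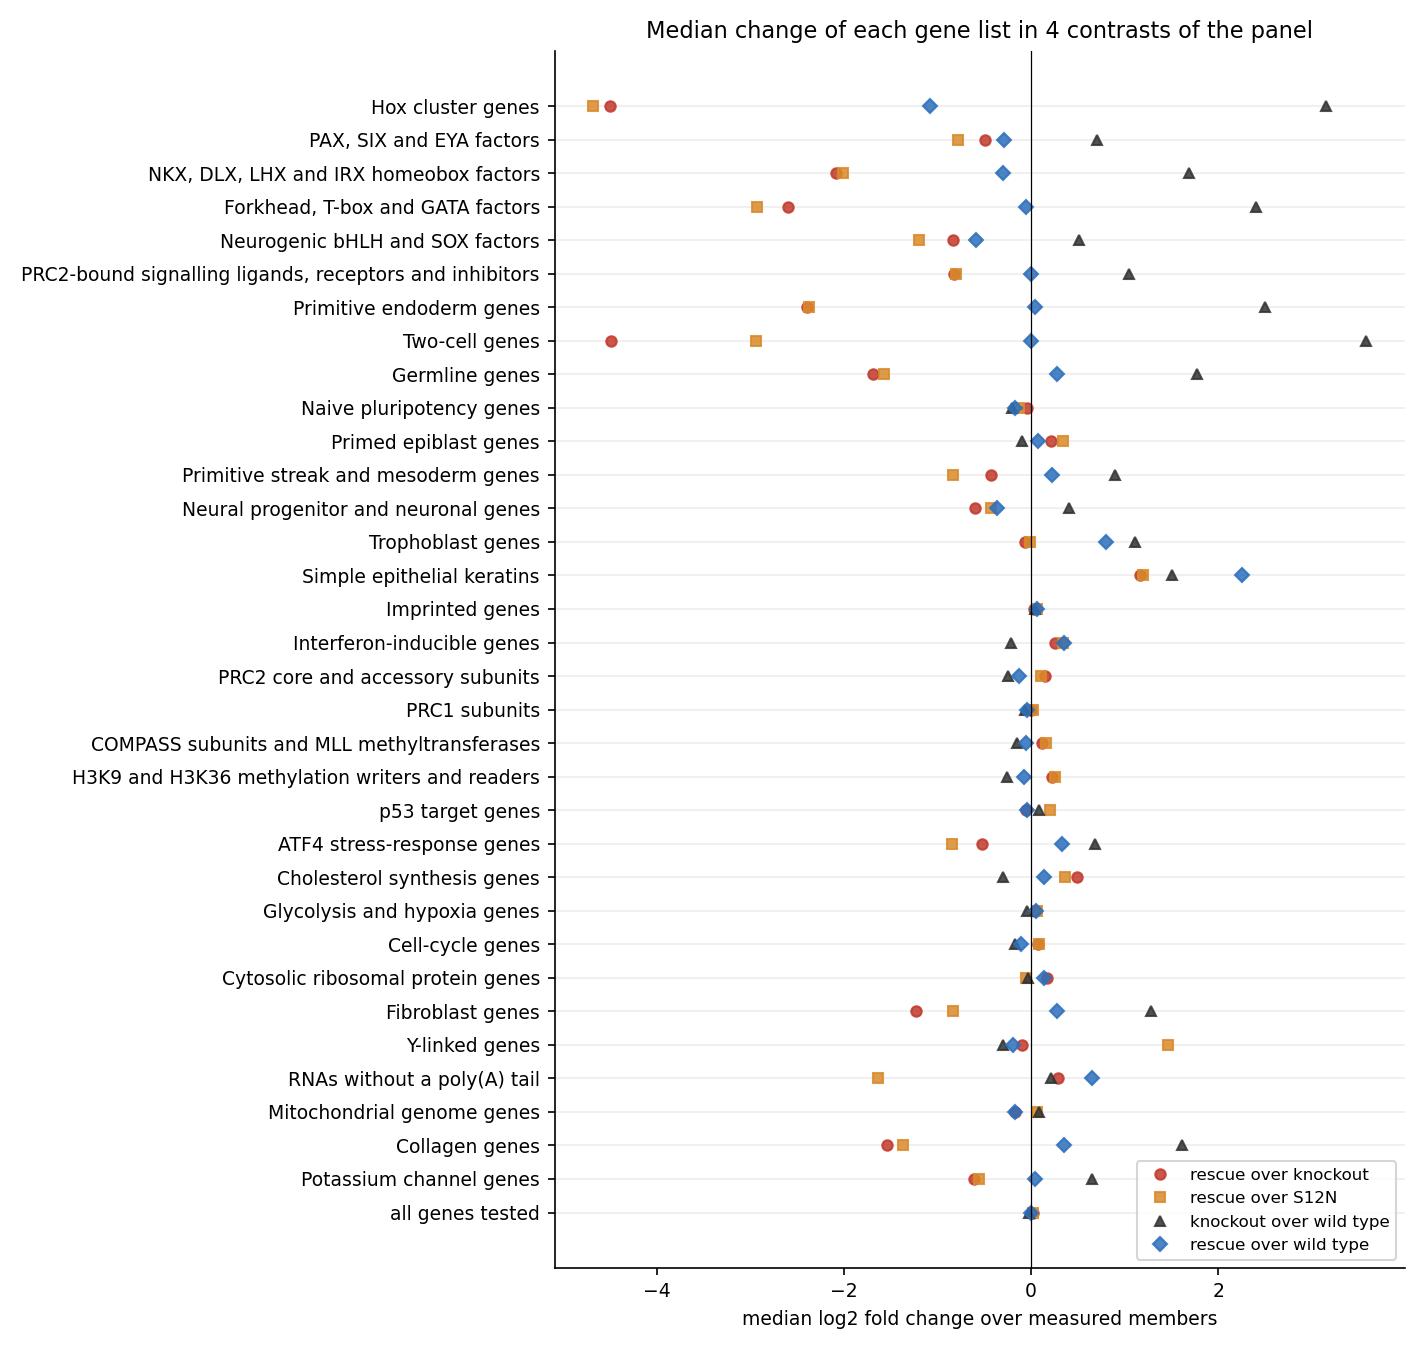
Points give the median log2 fold of each list's measured members in 4 comparisons, rescue over knockout, rescue over S12N, knockout over wild type and rescue over wild type. Hox genes lie at -4.5 and -4.68 in the first pair and at 3.15 in the knockout over wild type, while keratins lie above 0 in all 4, at 1.16, 1.2, 1.51 and 2.25. Of 27 Hox genes, 8 in each of the first pair and 4 in knockout over wild type had 0 counts in a group.

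Rescue cells were set against wild-type cells to see which genes still differed, across the same split in depth and naming. The test called 1687 genes (10.4%), 920 higher (5.67%) and 767 lower (4.73%), of which 314 (1.93%) and 67 (0.413%) were at least 2-fold. Without rescue replicate 2 it called 1054, and with only both groups fitted 1038. Ptch1 had 248, 256 and 255 CPM in wild-type cells, and the log2 fold, rescue over wild type, was 0.05 ± 0.09. None of the 21 measured two-cell genes was called in either direction. However, 15 of them had 0 counts in a group, so most could hardly be called.

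Some developmental genes were lower in the rescue than in wild type. Of 27 Hox genes 3 were lower and 0 higher (median -1.08), of which Hoxd13 was at -0.90 ± 0.26. The others rest on few counts. Hoxd11 had 1 count in the rescue and 8 in wild-type cells (-4.24, counting interval -9.71 to -1.34, libraries overlapping), and Hoxc4 had 0 in the rescue and 4 in wild-type cells. Sox1, an early neural factor, had 4.22, 3.17 and 3.17 CPM in the rescue and 15.8, 15.6 and 9.96 CPM in wild-type cells (-1.99 ± 0.17). Halr1, a long noncoding RNA beside the HoxA cluster, had 2.94, 2.08 and 2.91 CPM in the rescue and 12, 15.5 and 9.96 CPM in wild-type cells (-2.25 ± 0.21). Pax6 had 34.6, 25.9 and 32.2 CPM in the rescue and 40.6, 67.3 and 41.9 CPM in wild-type cells (-0.70 ± 0.15). For each of Sox1, Halr1 and Pax6 the highest rescue library stayed under the lowest wild-type library.

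Other genes were higher in the rescue than in wild type. All 5 called keratins were higher and 0 lower of 6 (median 2.25), with Krt7 at 3.47 (counting interval 2.61 to 4.49), Krt19 at 2.79 ± 0.29, Krt8 at 2.35 and Krt18 at 2.15. Krt19 had at least 14.7 CPM in every rescue library and 8.42 CPM in every knockout library, against 4.53, 3.69 and 3.63 CPM in wild-type cells. It was thus higher in both derived lines than in wild type. Krt42 departed from that order, with 73.4, 73.4 and 69.7 CPM in wild-type cells, above the knockout. Interferon genes had 10 higher and 0 lower of 31 (median 0.35), and Gbp2 had 3.53, 3.29 and 4.1 CPM in wild-type cells (2.30 ± 0.27). Trophoblast genes had 9 higher and 0 lower of 20 (median 0.8), and ribosomal protein genes 23 higher and 0 lower of 77 (median 0.14). The trophoblast list also holds Krt7, Krt8, Krt18 and Krt19, so its count repeats the keratin result in part. Fmr1nb, a testis antigen gene, had 6.31, 4.42 and 5.13 CPM in the rescue, 42.3, 40.7 and 37 CPM in the knockout and 0.331, 0.697 and 0.586 CPM in wild-type cells. The rescue lay between the others (rescue over wild type 3.27, counting interval 2.52 to 4.12, adjusted p = 1.06e-09 by edgeR). Dppa3, with 18.3, 17.8 and 18.4 CPM in wild-type cells, was 1.62 ± 0.10 higher in the rescue.

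The second dataset gave the full-length SUZ12 line against the knockout in libraries that share neither kit nor depth split with the panel. Full-length libraries held 7790370 to 21722857 counts and knockout libraries 5476658 to 18581501. Suz12 had 164, 170 and 172 CPM in full-length libraries, 60.4, 56.2 and 67 CPM in knockout libraries and 285, 292 and 310 CPM in wild-type libraries. The full-length line lay between the others, at 1.48 ± 0.06 over the knockout. The test called 3707 of 14026 genes (26.4%), with 1728 higher (12.3%) and 1979 lower (14.1%), and 685 (4.88%) were at least 2-fold lower against 144 (1.03%) at least 2-fold higher.

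Among the 12340 genes tested in both datasets, 1388 were lower in both, which is 45.7% of the 3038 lower in the panel and 75.1% of the 1847 lower in the second dataset. Another 1192 were higher in both, 35.2% of 3384 and 74.9% of 1592. Opposite calls were made for 22 and 58 genes. The Hox list had a median of -4.61 in the panel and -1.74 in the second dataset, over 22 genes in both. For primitive endoderm the medians were -2.4 and -0.79 over 28 genes, and for germline genes -1.68 and -0.75 over 32.

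The size of these decreases was tested as a difference of fold changes, panel minus second dataset. Over all 12877 genes with a test, 1282 differed (9.96%), 477 with a higher fold in the panel (3.7%) and 805 with a lower one (6.25%). Differences of 2-fold or more were called for 97 (0.753%) on the higher side and 357 (2.77%) on the lower. Of 22 Hox genes 16 had a lower fold in the panel and 0 a higher one, and of 28 primitive endoderm genes 18 had a lower and 1 a higher one. Hoxd13 had 8.83, 8.06 and 10.5 CPM in full-length libraries, 31.2, 34.1 and 32.1 CPM in knockout libraries and 1.5, 2.04 and 0.636 CPM in wild-type libraries. Its full-length level lay between the knockout and wild-type levels, and the fold changes differed by -2.98 ± 0.24 (adjusted p = 1.59e-10 by edgeR). Col4a1 had 200, 185 and 196 CPM in full-length libraries and 468, 457 and 456 CPM in knockout libraries, with a difference of -3.04 ± 0.23. The Suz12 fold also differed, by 0.74 ± 0.16 (adjusted p = 0.00251 by edgeR). The part of the Suz12 level, of the medium and of the library kit in these differences was not tested.

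Higher genes were shared in part. Gna14 had 20.4, 18.8 and 15.3 CPM in full-length libraries and 1.83, 2.83 and 3.05 CPM in knockout libraries (2.81 ± 0.25). Ina had 88.9, 86.1 and 82.2 CPM in full-length libraries and 17.7, 16.2 and 15.3 CPM in knockout libraries, and its fold changes did not pass the test of the difference (-0.18 ± 0.15). Napsa rose in both datasets, by 2.75 ± 0.15 in the panel and by 3.59 ± 0.20 in the second dataset. These genes were well separated between groups in each dataset.

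Cholesterol genes did not behave alike in the 2 datasets. Their median was 0.49 in the panel and -0.23 in the second dataset, and for 17 of 22 the fold was higher in the panel and for 0 lower. Hmgcs1 had 206, 202 and 209 CPM in full-length libraries and 254, 249 and 262 CPM in knockout libraries, the reverse of its order in the panel (-0.31 ± 0.06, difference 1.27 ± 0.11). Keratins had medians of 1.2 and -0.03, with 4 of 5 folds higher in the panel and 0 lower. Krt19 had 11.4, 13.7 and 12.6 CPM in full-length libraries and 12.7, 12.7 and 16.7 CPM in knockout libraries, which overlapped (-0.14 ± 0.16). Gbp2 had 0.971, 1.71 and 1.17 CPM in full-length libraries and 1.27, 0.641 and 2.15 CPM in knockout libraries, overlapping as well (0.05 ± 0.59). Asns and its list also differed, with ATF4 medians of -0.53 and -0.03 and 9 of 22 folds lower in the panel. Dppa3 rose in both, by 2.06 ± 0.11 in the panel and by 0.68 ± 0.20 in the second dataset.

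**Figure D5:**
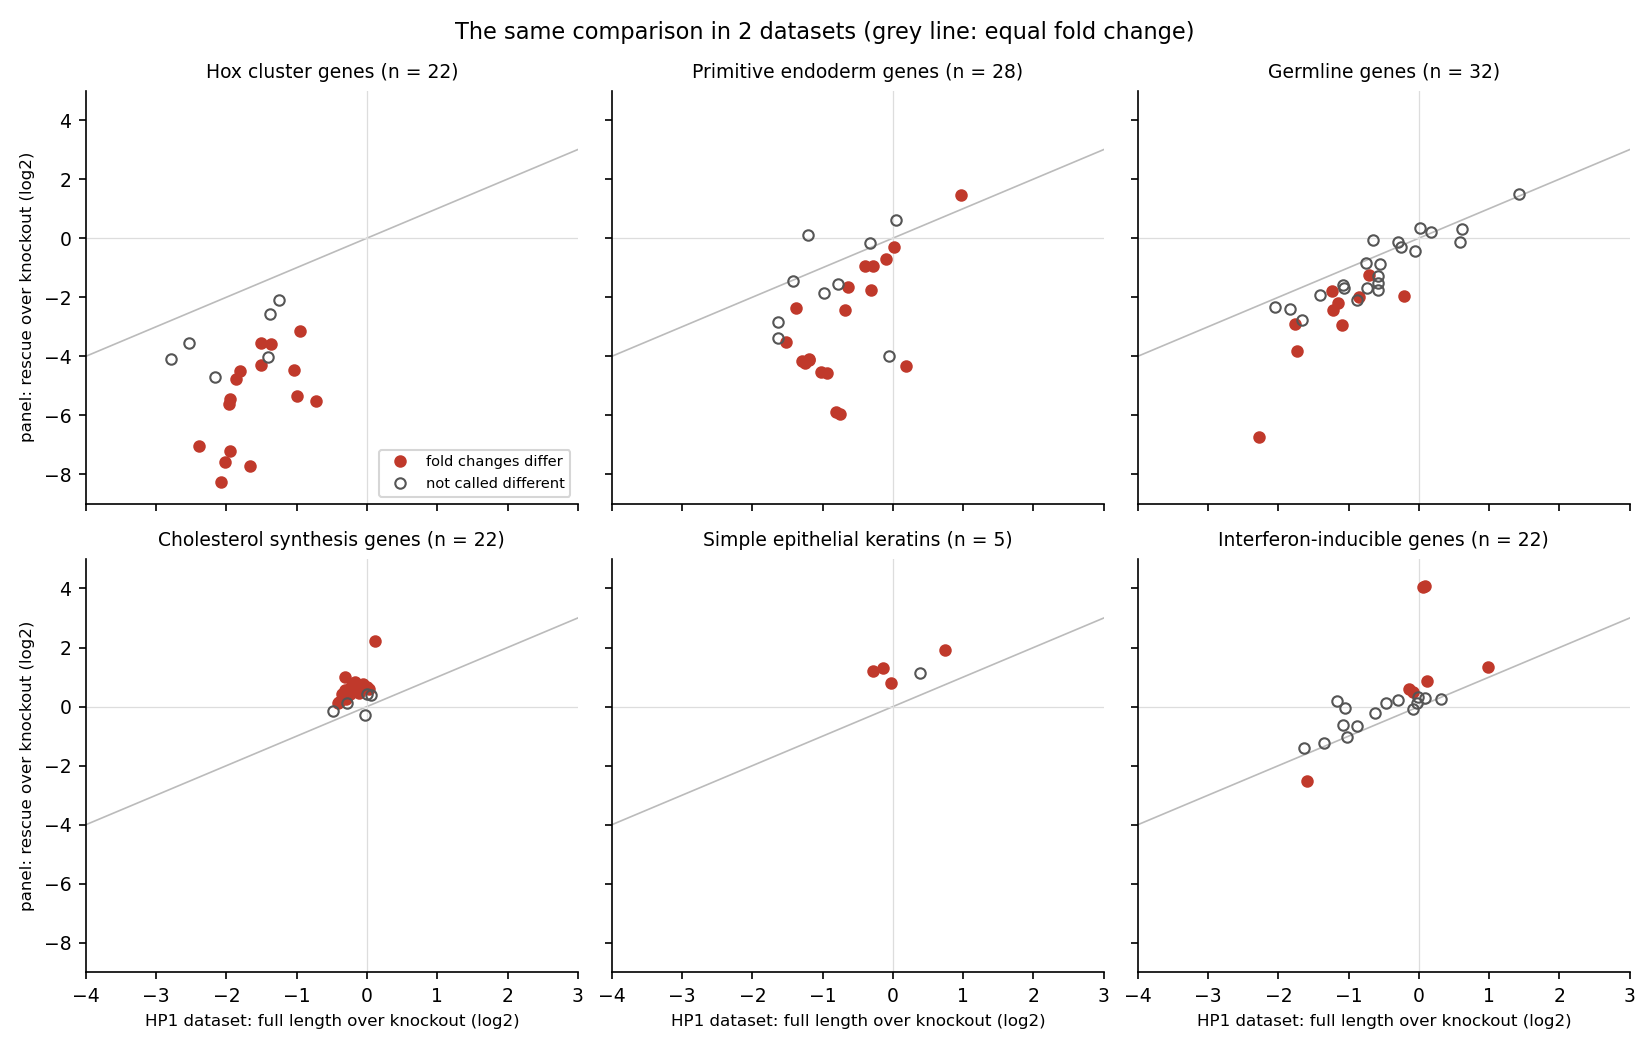
Each point is a gene of the list named on its panel, with the log2 fold of full-length SUZ12 over knockout in the second dataset on the horizontal axis and of the rescue over knockout in the panel on the vertical axis. Filled points have fold changes that differ at an adjusted p under 0.05; Hox, primitive endoderm and germline genes lie mostly below 0 on both axes and further from 0 in the panel, while cholesterol genes lie mostly above 0 in the panel and mostly below 0 in the second dataset.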

How the data were processed

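The values used were raw read counts per gene, deposited by the authors in 1 table for the panel and in a file per sample for the second dataset, called the HP1 dataset here after one of its constructs. Per the submitters' processing notes, the tools were Trim Galore 0.4.5, STAR 2.4, Picard, HTSeq 0.9.1 and DESeq2 with build mm10 for the panel, and Trimmomatic and HISAT2 for the HP1 dataset, whose counter is not given in the sources used here. Panel columns were matched to samples through the construct and replicate number in their names, which are not the sample titles (those named VEFS were read as S12N), and 0 columns were left over. For the panel, 27 gene names had been turned into dates and stayed under the names listed. In the HP1 dataset 25275 of 27179 gene IDs were matched to a symbol.

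All 24 panel libraries of 8 groups were fitted together with edgeR 4.0.16 in R 4.3.3 (TMM scaling, filterByExpr, quasi-likelihood test, Benjamini-Hochberg adjustment over 16230 genes, threshold 0.05). The 15 libraries of the HP1 dataset were fitted in the same way over 14026 genes, and a joint fit of 24 libraries tested the difference of fold changes over 12877 genes. CPM used the TMM-scaled library sizes. Fold changes are log2 with no prior count, and errors are standard errors. Where a group held under 30 counts, an exact 95% counting interval is given in place of the standard error, and a group at 0 counts was set to a floor of 3 counts over the group. Intervals and floors cover counting error only. P-values and standard errors rest on the spread between libraries within groups, estimated over all groups of the fit. That spread may be technical. Depth per library limits genes near the floor, more in the shallower knockout libraries. The 1.5 times rule decided whether a count had moved.

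Genes were named by rule. It took Suz12, the 12 lower and 12 higher genes with the largest fold change among those called, having an average log2 CPM no lower than 1 and groups that did not overlap (predicted genes and RNAs without a poly(A) tail left out), up to 4 members with the smallest p of each of 33 lists, and 4 in each direction for the rescue against wild type and for the difference between datasets. Other list members were named after their values were seen, and a few genes that the rule named are not reported here. The members and lists were chosen with earlier results of these data known. In every list, members that passed the filter only because the knockout transcribes them had to differ from the rescue. Alternatives were DESeq2 1.42.0, RLE size factors, no filter, only the groups compared, a replicate block, libraries left out, thinning, removal of RNAs without a poly(A) tail and a test against 2-fold. The scripts were tested on simulated data. Tables and figures used Python 3.11.15, pandas 2.3.3, SciPy 1.17.1 and matplotlib 3.10.9.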

Additional observations from a re-analysis of the deposited data

Results flagged for a closer look

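The rescue effect was tested for a difference between the panel and the HP1 dataset, panel minus HP1 dataset, with an interaction term in edgeR. It differed for 1282 genes. Among the genes named by rule, the log2 difference was -7.31 for Bmper, -6.23 for Hoxd11, -6.1 for Hoxa11 and -5.64 for Hoxa11os, the fold being lower in the panel. These 4 had at most 3 counts over the panel's rescue libraries. Bmper had 1.99, 3.09 and 1.04 CPM in full-length libraries and 1.27, 4.33 and 5.03 CPM in knockout libraries of the HP1 dataset.

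The fold was higher in the panel by 4.12 for Gbp2b, 3.94 for Fgf5 and 3.84 for Gbp2. Fgf5, a ligand of the primed epiblast, had 12.1, 8.2 and 5.78 CPM in the rescue and 1.86, 1.75 and 2.93 CPM in the panel knockout, but 0.694, 0.488 and 1.56 CPM in full-length libraries and 2.67, 3.85 and 2.87 CPM in knockout libraries of the HP1 dataset. Fgf5 went in opposite directions in the datasets, with no overlap between groups in either.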

How the results depend on the processing

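Rescue against knockout called 7356 genes with DESeq2, 7574 with RLE size factors, 7604 without the filter, 7720 without RNAs lacking a poly(A) tail, 6387 in thinned libraries and 6139 with only both groups fitted. Under a test against 2-fold it called 1286 (172 higher, 1114 lower). With 1 library left out, calls ranged from 6881 to 7414 for rescue against knockout, 6951 to 7453 for rescue against S12N, 6766 to 7002 for knockout against wild type, 2984 to 3321 for the HP1 dataset and 1054 to 1616 for rescue against wild type (579 to 947 higher, 475 to 669 lower). Rescue against wild type called 1038 (419 lower) with only both groups fitted, and without the filter its calls divided into 1154 higher and 533 lower. Knockout against wild type called 2490 lower with only both groups fitted, an alternative chosen after seeing the data, as were all those for that comparison. No named gene reversed its direction, but near-even balances tipped. Rescue against knockout divided into 3200 higher and 4156 lower with DESeq2 and 3409 and 4165 with RLE size factors, and rescue against wild type into 874 and 978 with DESeq2. Of the lists, naive pluripotency genes became 8 higher and 7 lower without knockout replicate 2, trophoblast genes 7 and 6 and p53 genes 5 and 4 without knockout replicate 1, glycolysis genes 7 and 8 without knockout replicate 3, and imprinted genes 13 and 15 without rescue replicate 2. Over all named genes and settings the verdict was kept 2117 times, 62 lost the call, 51 of them under the test against 2-fold, and 9 gained it.

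With the replicate number as a block, rescue against knockout called 8018 genes, rescue against S12N 7929, rescue against wild type 1815, knockout against wild type 7740, the HP1 dataset 3646 and the difference 1383. Same-numbered rescue and knockout libraries did not deviate together (correlations -0.0377, -0.0426 and -0.00955), so the numbers were not taken as pairs.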

Other observations

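The chromosome with the largest share of genes at least 2-fold lower in the rescue was 6, with 122 of its 667 genes tested (18.3%). That with the smallest share among the autosomes was 17, with 9.16%, against 12.7% of all genes tested. Chromosome 6 carries the HoxA cluster, whose part in its share was not tested.

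Predicted genes with satellite-like sequence were high in some libraries. Gm10800, picked out after its values were seen, had 31.7 to 141 CPM in rescue libraries and 0.582 to 6.81 CPM in knockout libraries (log2 fold 4.67). It had 24.5 to 171 CPM in S12N libraries and 0.11 to 2.29 CPM in wild-type libraries. In these groups it thus followed the split in depth and naming. Over the 18 deeper libraries it ranged from 0 to 171 CPM. The part of that split in its values was not tested.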
